A study of Mus musculus with 12 samples.

Results

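The chemokine receptor CXCR3, its ligands CXCL9 and CXCL10, and interferon gamma with its receptor were followed through the skin of wild-type (WT) and Lcn2-/- mice under imiquimod (IMQ), an agonist of Toll-like receptor 7 whose cream produces psoriasis-like dermatitis in mice. The set holds 6 genes, Cxcl9, Cxcl10, Cxcr3, Ifng, Ifngr1 and Ifngr2, of 56923 in the table. The set was chosen by the measured level of Cxcl10, which stood high in the untreated mice labelled Lcn2-/-, so every value that rests on that group is given below as a description, without a test. The study asked how the loss of lipocalin 2, an iron-binding secreted protein of neutrophils and keratinocytes, alters psoriasis-like skin. Total RNA of back skin was sequenced in bulk. The animals were females, 8 to 10 weeks old, and formed 4 groups with 3 in each: WT control, WT IMQ, Lcn2-/- control and Lcn2-/- IMQ. The Lcn2-/- animals were bought, on a C57BL/6 background, as mice with a germline deletion; WT mice were their littermates. IMQ cream at 5% was spread each day for 6 days on the shaved back, and controls received vehicle by the protocol, although their treatment label reads none.

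Lcn2 itself was counted in all 6 libraries labelled as lacking it. Its counts were 136, 201 and 86 in WT control mice and 1010, 2723 and 1572 in WT IMQ mice. They were 320, 173 and 357 in the controls labelled Lcn2-/-, and 561, 511 and 830 in the IMQ mice so labelled. Scaled to CPM, as below, the KO-labelled controls had 1.82-fold the WT control level without overlap (9.22 to 15.9 against 4.57 to 8.64 CPM), and the KO-labelled IMQ mice lay below the WT IMQ mice (29.9 to 49.8 against 61.2 to 183 CPM). Of all tested genes, 4.19% were higher without overlap in the first comparison and 17.3% lower in the second. The second gave log2 -1.49 (SE 0.40, adjusted p = 0.0525 by edgeR's quasi-likelihood test). Lcn2 was called lower there by DESeq2 on all 12 mice, and by DESeq2 and edgeR on the 6 compared. The genotype field names a knockdown where the titles name a knockout, and gene totals do not show which exons were read, so these groups are called KO-labelled throughout. Levels are given in CPM, counts scaled to library size and composition by the trimmed mean of M-values (TMM). The extraction text speaks of retinas while the tissue field says skin: 8 retina genes summed to between 4.44 and 7.98 CPM in any mouse, with Prph2, a structural protein of photoreceptors, at no more than 3 counts, whereas 10 keratinocyte genes summed to between 5270 and 40800.

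Some mice stood apart from the others of their group across immune genes. WT control mouse 2 was the highest of its 3 for 31 of 33 measured interferon gamma targets, 20 of 20 type I interferon genes and 13 of 13 myeloid markers, and WT control mouse 3 was the lowest for all 20 type I interferon genes. WT IMQ mouse 2 was the highest of its group for 31 of the 33 targets. KO-labelled control mouse 2 was the lowest of its group for 32 of the 33 targets and for all 20 type I interferon genes. Values without a mouse are given beside the results that turned on it.

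Interferon gamma is secreted chiefly by T cells, natural killer (NK) cells and other innate lymphocytes. It binds a receptor made of the ligand-binding chain IFNGR1 and the signalling chain IFNGR2, which activates the kinases JAK1 and JAK2 and switches on a broad set of genes, among them Cxcl9 and Cxcl10. Both chemokines attract activated T cells and NK cells that bear CXCR3; CXCL9 depends mostly on interferon gamma, while CXCL10 also answers type I interferon and NF-κB. Interferon gamma and CXCR3 ligands are found in human psoriatic plaques beside the dominant IL-23 and IL-17 pathway.

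Cxcl9 and Cxcl10 lie 18558 bases apart on chromosome 5 in GRCm38, at chr5:92321347-92328079 and chr5:92346638-92348889, both on the minus strand. The 250 bases before their start sites are printed as a description, and the 2 stretches differ in the motifs held there. A link between these motifs and the levels of the 2 ligands was not tested. Sequences are RefSeq promoter entries of GRCm38.p6, 5′ to 3′ on the minus strand, from chr5:92328080-92328329 for Cxcl9 and chr5:92348890-92349139 for Cxcl10. Capitals mark matches to 3 motifs, searched on both strands: the interferon-stimulated response element (ISRE, GAAA, any 2 bases, then GAAA), the gamma-activated site (GAS, TTNCNNNAA) and the NF-κB consensus.
Cxcl9: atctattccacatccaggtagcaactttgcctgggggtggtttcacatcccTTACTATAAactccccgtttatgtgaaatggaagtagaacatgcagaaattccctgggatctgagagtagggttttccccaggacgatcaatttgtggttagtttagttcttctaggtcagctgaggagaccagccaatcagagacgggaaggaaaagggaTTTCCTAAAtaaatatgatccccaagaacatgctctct
Cxcl10: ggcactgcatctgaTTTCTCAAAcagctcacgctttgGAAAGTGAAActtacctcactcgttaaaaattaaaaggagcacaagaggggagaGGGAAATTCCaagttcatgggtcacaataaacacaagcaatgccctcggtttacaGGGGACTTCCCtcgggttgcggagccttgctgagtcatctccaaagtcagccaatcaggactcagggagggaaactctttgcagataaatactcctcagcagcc

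In the Cxcl9 window the capitals are 2 GAS matches, which begin 199 and 38 bases before the start. In the Cxcl10 window they are, from the 5′ end, a GAS match that begins 236 bases before the start, an ISRE match at 213, an NF-κB match at 159, and NF-κB matches at 104 and 103 that overlap each other. ISRE letters occurred in 3.44% of 32851 RefSeq windows of 300 bases (250 before and 50 after each start), NF-κB letters in 8.46% and GAS letters in 36.6%, so the GAS string is common by itself. Windows were found for 6 of 6 genes of the set: 1 held ISRE letters, 2 held GAS letters, and 2, Cxcl10 and Ifngr2, held NF-κB letters. Windows were matched for 22 of the 34 interferon gamma targets used below, of which 10 held an ISRE match and 14 a GAS match, and for 14 of the 20 type I interferon genes, of which 8 held an ISRE match and 6 a GAS match. A match of letters is a description and not evidence of a bound site.

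The receptor chains were the most abundant genes of the set and Ifng the scarcest. Per kilobase of exon, the WT control means ran from 51.6 CPM per kilobase for Ifngr1 and 15.8 for Ifngr2 down to 3.01 for Cxcl9, 2.94 for Cxcr3, 2.05 for Cxcl10 and 0.0622 for Ifng. WT IMQ skin kept this order. In KO-labelled controls Cxcl10 held the second place on that scale, at 47.1 CPM per kilobase, next to Ifngr1 at 49.6. In KO-labelled IMQ skin Cxcl10 was back in the fifth place, at 1.55 CPM per kilobase.

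**Figure D1:**
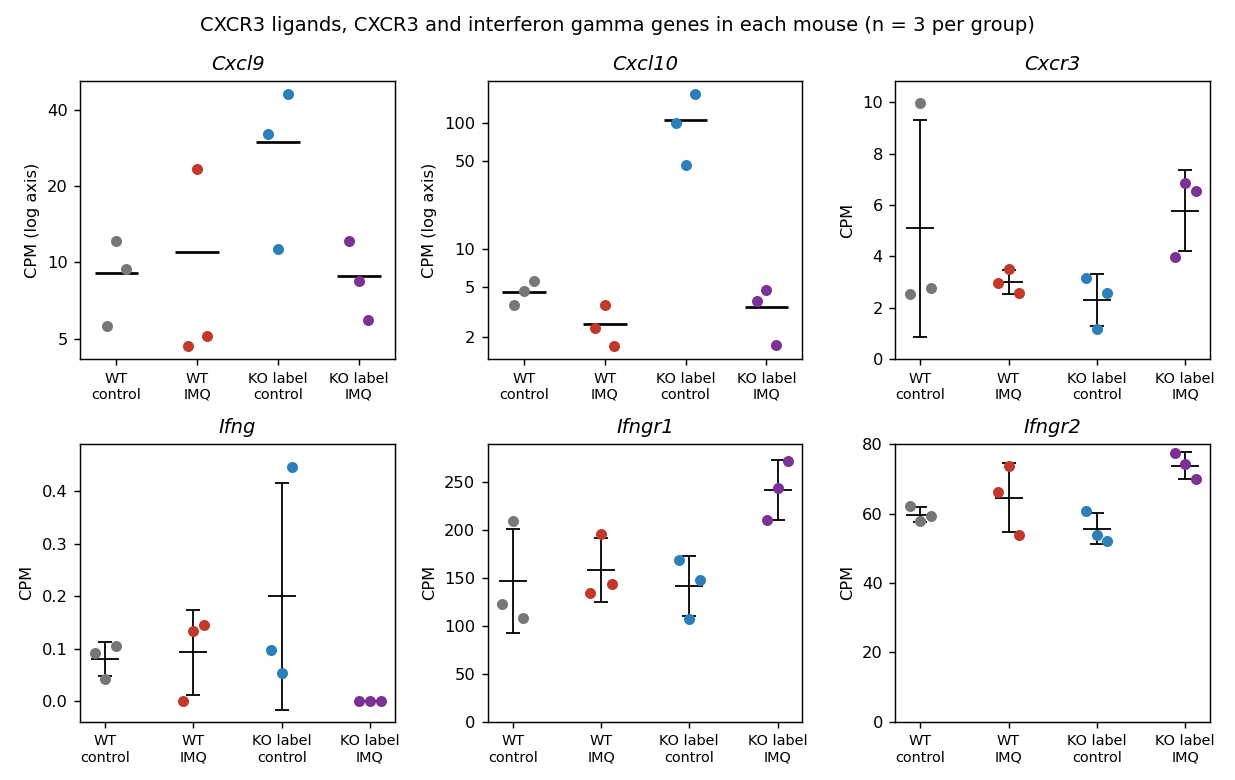
Level of each of the 6 genes in every mouse, in CPM, by group (3 mice each); points are mice, horizontal bars are means, and error bars, drawn on the linear axes only, are SD. Cxcl9 and Cxcl10 are on log axes. The 3 KO-labelled control mice have Cxcl10 between 46.9 and 171 CPM, while the other 9 mice lie between 1.7 and 5.58 CPM.

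Cxcl10, the ligand that chose the set, was counted at 79, 108 and 105 reads in WT control mice, or 3.65, 4.64 and 5.58 CPM. WT IMQ mice had 2.36, 3.63 and 1.7 CPM, and KO-labelled IMQ mice 3.91, 4.79 and 1.74 CPM. KO-labelled control mice had 99.7, 46.9 and 171 CPM, from 3036, 880 and 3836 reads. Thus the 3 groups other than KO-labelled controls lay within a narrow low range, and even the lowest KO-labelled control stood far above it. Group means were 4.63 ± 0.966 (SD, n = 3) in WT control, 2.56 ± 0.983 in WT IMQ, 106 ± 62.4 in KO-labelled control and 3.48 ± 1.57 CPM in KO-labelled IMQ skin. The log2 difference between the control groups was 4.52 (SE 0.50), a 22.9-fold higher level in KO-labelled mice, and it ranked 46 of 18529 genes from the top. This difference selected the gene and carries no test; omitting 1 mouse at a time left it between 3.99 and 4.87. From KO-labelled control to KO-labelled IMQ skin the log2 difference was -4.93 (SE 0.51), with no overlap between the groups. In the control comparison 4.19% of all genes were higher without overlap, 5.18% lower and 9.37% either way, against 1 of 5 tested genes of the set.

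In the comparisons without the KO-labelled controls, Cxcl10 did not pass the test, although the fit took its spread from all 12 mice. WT IMQ skin was lower than WT control skin by a log2 difference of -0.87 (SE 0.50, 95% interval -1.95 to 0.22, adjusted p = 0.213 by edgeR's quasi-likelihood test), although all 3 WT IMQ mice lay below all 3 WT controls, as was so for 20.6% of all tested genes; 20.1% were higher without overlap, and 40.6% stood apart either way. Fitted on the 6 compared mice alone, edgeR gave -0.87 for WT IMQ against WT control (SE 0.35, unadjusted p = 0.0401, adjusted p = 0.118). DESeq2 on those mice gave -0.85 (SE 0.39, unadjusted p = 0.0272, adjusted p = 0.0822). KO-labelled IMQ skin differed from WT IMQ skin by 0.46 (SE 0.51, 95% interval -0.65 to 1.58, adjusted p = 0.585), and those groups overlapped. Once both genotypes had received IMQ, a difference in Cxcl10 RNA was thus not resolved with 3 mice a group. The study's western blots showed less CXCL10 protein in Lcn2-/- than in WT skin after IMQ, whereas the values here are of RNA.

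Cxcl9, the ligand most closely tied to interferon gamma, was 5.64, 12.2 and 9.46 CPM in WT controls and 4.67, 23.3 and 5.13 CPM in WT IMQ mice. KO-labelled controls had 32.1, 11.3 and 46.2 CPM, and KO-labelled IMQ mice 12.2, 8.42 and 5.94 CPM. KO-labelled control mice 1 and 3 were the highest of the 12, whereas mouse 2 fell inside the WT control range. The group means were 9.09 ± 3.28, 11 ± 10.6, 29.9 ± 17.6 and 8.84 ± 3.13 CPM (SD, n = 3) in the same order. The log2 difference between KO-labelled and WT controls was 1.72 (SE 0.64), or 3.29-fold, with overlap, and from KO-labelled control to KO-labelled IMQ skin it was -1.76 (SE 0.65).

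WT IMQ mouse 2 set the direction of Cxcl9 in both tested comparisons. WT IMQ against WT control gave a log2 difference of 0.27 (SE 0.64, 95% interval -1.13 to 1.66, adjusted p = 0.788), and -0.89 (adjusted p = 0.25) without that mouse. KO-labelled IMQ against WT IMQ gave -0.31 (SE 0.64, 95% interval -1.71 to 1.09, adjusted p = 0.788), and 0.85 (adjusted p = 0.31) without it. The same mouse had the highest level of all 5 tested genes of the set within its group.

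The balance between the ligands differed as well. Per kilobase, Cxcl10 was 4.17, 5.56 and 4.96 times Cxcl9 in the 3 KO-labelled controls. It was 0.867, 0.511 and 0.79 times Cxcl9 in WT controls, 0.678, 0.209 and 0.442 times in WT IMQ mice, and 0.431, 0.763 and 0.392 times in KO-labelled IMQ mice. All 9 mice of those groups had less Cxcl10 than Cxcl9 per kilobase, and the 3 KO-labelled controls had more. KO-labelled control mouse 2, with the lowest level of both ligands in its group, had the highest ratio. These ratios use the values that chose the set and are a description.

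**Figure D2:**
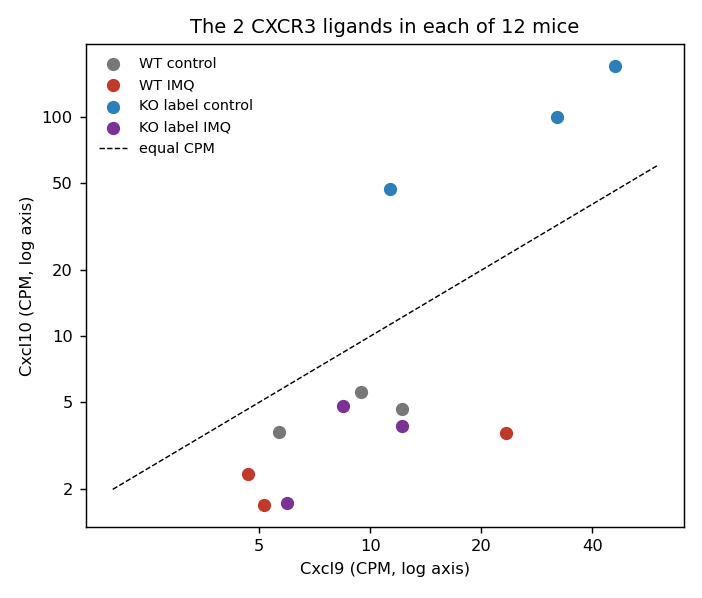
Cxcl10 against Cxcl9 in each of the 12 mice, both in CPM on log axes; colours are the 4 groups and the dashed line is equal CPM. The 3 KO-labelled controls lie above the line and the other 9 mice below it.

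Cxcl11, the remaining CXCR3 ligand, is annotated in this strain's genome as a polymorphic pseudogene, and no functional protein is made from the C57BL/6 allele. It had 5, 9 and 1 reads in WT controls, 2, 5 and 3 in WT IMQ mice, 31, 10 and 47 in KO-labelled controls, and 6, 11 and 5 in KO-labelled IMQ mice. All 3 KO-labelled controls were above all 3 WT controls, in the order of mice seen for Cxcl9 and Cxcl10: mouse 3, then 1, then 2. Dpp4, a peptidase that trims and inactivates CXCR3 ligands, had a mean of 52.7 CPM in WT IMQ and 97.1 CPM in WT control skin (log2 difference -0.88, SE 0.34, adjusted p = 0.0704). It passed with DESeq2 on all 12 mice (adjusted p = 0.0371) and without WT control mouse 3 (-1.24, adjusted p = 0.002), and in no other alternative run. It was 66.1 CPM in KO-labelled IMQ skin (0.33 against WT IMQ, SE 0.34, adjusted p = 0.555).

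Cxcr3, the receptor on activated T and NK cells (chrX:101731535-101734269), did not follow its ligands. WT control mice had 2.54, 9.97 and 2.76 CPM, WT IMQ mice 2.97, 3.5 and 2.57, KO-labelled controls 3.15, 1.17 and 2.59, and KO-labelled IMQ mice 3.97, 6.84 and 6.54 CPM. WT control mouse 2 was the highest of all, and the group with the most Cxcl10 had the lowest mean Cxcr3, 2.31 ± 1.02 CPM (SD, n = 3), in mice that overlapped the WT controls; its log2 difference from WT control, -1.13 (SE 0.52), was -0.16 without WT control mouse 2. In bulk skin, fewer cells of a type and less RNA per cell cannot be told apart.

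WT IMQ against WT control gave a log2 difference in Cxcr3 of -0.77 (SE 0.52, 95% interval -1.90 to 0.37, adjusted p = 0.294), which turned to 0.18 (adjusted p = 0.788) without WT control mouse 2. KO-labelled IMQ mice had 1.92-fold the WT IMQ level (log2 0.94, SE 0.52, 95% interval -0.20 to 2.08, adjusted p = 0.264). All 3 KO-labelled IMQ mice lay above the 3 WT IMQ mice, as was so for 16% of all tested genes. On these 6 mice alone DESeq2 gave an adjusted p of 0.023 and edgeR 0.066, and DESeq2 on all 12 mice gave 0.211. The KO-labelled IMQ mean was also 2.48-fold the KO-labelled control by the fit (log2 1.31, SE 0.52), without overlap, as was so for 23.1% of all genes.

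Ifng (chr10:118441046-118445892) was barely detected: 24 reads in all 12 libraries together. Counts were 2, 1 and 2 in WT controls, 0, 2 and 3 in WT IMQ mice, 3, 1 and 10 in KO-labelled controls, and 0 in each KO-labelled IMQ mouse. Only KO-labelled control mouse 3, which also had the most Cxcl9 and Cxcl10, exceeded 3 counts. A count of 0 allows up to 3 counts, or 0.175 to 0.183 CPM in the KO-labelled IMQ libraries. The counts of Ifng were too low for the low-count filter, so no fold is given. Exact permutation tests (two-sided, smallest possible p 0.1) gave p = 0.9 for WT IMQ against WT control and p = 0.4 for KO-labelled IMQ against WT IMQ. A difference in Ifng was not detectable at this depth.

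Ifngr1 (chr10:19591949-19610229) had 123, 209 and 108 CPM in WT controls, 134, 196 and 144 in WT IMQ mice, 169, 107 and 148 in KO-labelled controls, and 210, 244 and 272 CPM in KO-labelled IMQ mice. The last group was the highest, its lowest mouse standing just above the highest WT control. It lay above WT IMQ mice without overlap, as was so for 16% of all tested genes. KO-labelled IMQ skin had 1.53-fold the WT IMQ level (log2 0.62, SE 0.25, 95% interval 0.06 to 1.17), with an unadjusted p of 0.0327 and an adjusted p of 0.15 by edgeR over all tested genes. Fitted on the 6 compared mice alone, edgeR gave an adjusted p of 0.0462 and DESeq2 0.00843, so the call depends on which mice set the spread. IMQ in WT mice left Ifngr1 at a log2 difference of 0.10 (SE 0.25, 95% interval -0.45 to 0.66, adjusted p = 0.794), whose sign turned when any of 3 mice was left out: -0.01 without WT control mouse 1, -0.08 without WT control mouse 3 and -0.09 without WT IMQ mouse 2.

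Ifngr2 (chr16:91547072-91565623) stayed between 52.2 and 77.4 CPM in all 12 mice. It was 62.1, 57.7 and 59.2 CPM in WT controls, 66.1, 73.8 and 53.9 in WT IMQ mice, 60.6, 53.9 and 52.2 in KO-labelled controls, and 77.4, 74.2 and 69.8 CPM in KO-labelled IMQ mice. KO-labelled IMQ mice overlapped WT IMQ mice, at a log2 difference of 0.19 (SE 0.12, 95% interval -0.07 to 0.45, adjusted p = 0.315). WT IMQ against WT control gave 0.11 (SE 0.12, 95% interval -0.15 to 0.37, adjusted p = 0.51). From KO-labelled control to KO-labelled IMQ skin both chains were higher without overlap, as were 23.1% of all genes, by 0.78 (SE 0.25) for Ifngr1 and 0.41 (SE 0.12) for Ifngr2 on the log2 scale. Ifngr1 was between 2.42 and 5.15 times Ifngr2 per kilobase in every mouse.

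Ordered by group mean, neighbouring groups overlapped for Cxcl9, Cxcr3 and Ifngr2 throughout. Groups further apart in that order could still separate, such as Cxcr3 in KO-labelled IMQ against WT IMQ mice and Cxcl10 in WT IMQ against WT control mice. The steps whose mice did not overlap were KO-labelled control above WT control for Cxcl10, where 4.19% of all tested genes were higher without overlap, and KO-labelled IMQ above WT IMQ for Ifngr1, where 16% were. WT control also stood above KO-labelled IMQ for Ifng, where the counts were at or under 3. Of the 5 genes that could be tested, 0 passed in WT IMQ against WT control, where 28.5% of all genes did. In the fit on all mice none had an unadjusted p under 0.05 there, although Cxcl10 had 0.0401 by edgeR on the 6 compared. DESeq2 called 0 on all 12 mice and 0 on the 6 compared. In KO-labelled IMQ against WT IMQ, 0 of 5 passed where 4.78% of all genes did; 1, Ifngr1, had an unadjusted p under 0.05, and DESeq2 called 0 on all 12 mice and 2, Cxcr3 and Ifngr1, on the 6 compared. Both comparisons use the same 3 WT IMQ mice.

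**Figure D3:**
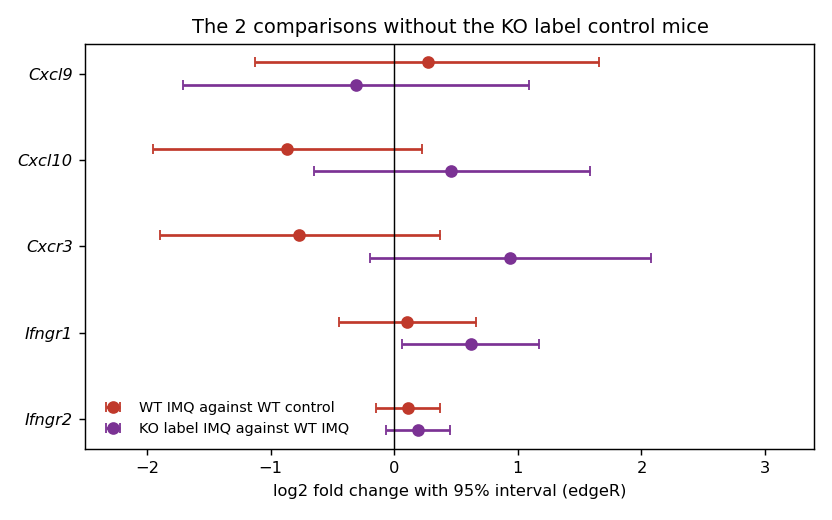
Fitted log2 fold change of the 5 tested genes with its 95% interval, for WT IMQ against WT control and for KO-labelled IMQ against WT IMQ. All intervals cross 0 except that of Ifngr1 in KO-labelled IMQ against WT IMQ, which spans 0.06 to 1.17 before adjustment over all genes.

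The cytokines, receptors and transcription factors that drive interferon gamma production moved both ways under IMQ in WT skin. Of 13 such genes 12 could be tested, and 3 rose while 2 fell, with a median log2 difference of -0.59 against -0.02 over all genes; 14.2% of all genes were called higher and 14.3% lower. Il12rb2, the IL-12 receptor chain that marks cells able to answer IL-12, fell from 5.61 to 0.711 CPM (log2 -2.94, SE 0.60, adjusted p = 0.00392). Il18rap, the accessory chain of the IL-18 receptor, rose 3.02-fold (1.60, SE 0.37, adjusted p = 0.00773). Il18 rose 2.01-fold (1.01, SE 0.28, adjusted p = 0.0201), and Ebi3, a subunit of IL-27, 3.2-fold (1.68, SE 0.56, adjusted p = 0.0427). The calls of Il18 and Ebi3 were lost without WT control mouse 1, WT IMQ mouse 1 or WT IMQ mouse 2, and that of Ebi3 also without WT control mouse 3, with adjusted p up to 0.0794 and 0.21, and 1 gene of the list was called higher without WT control mouse 1 or WT IMQ mouse 1.

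In KO-labelled IMQ against WT IMQ, 0 of these 12 genes passed, 2 had an unadjusted p under 0.05, both higher, and DESeq2 called 1 on the 6 mice and 1 on all 12; 2.19% of all genes were called higher and 2.6% lower. The differences between the control groups had a median of -0.03 over these genes but ran from -3.78 to 2.44. Without overlap, 1 was higher and 0 lower in KO-labelled controls, where 4.19% of all genes were higher and 5.18% lower. Il12rb2 averaged 8.19 CPM in KO-labelled controls and 0.422 CPM in KO-labelled IMQ skin, without overlap.

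Of 11 genes of the receptor's signalling path, 2 rose under IMQ in WT skin and 0 fell, beside 14.2% of all genes called higher and 14.3% lower. The count of rising genes was 3 without WT control mouse 2, and 1 without WT control mouse 1 or 3 or WT IMQ mouse 1 or 2. Socs3, a feedback inhibitor of cytokine receptors that also answers IL-6 family signals, rose from 23.3 to 138 CPM (log2 2.57, SE 0.36, adjusted p = 0.000427). Jak2, the kinase bound to IFNGR2, rose 1.4-fold (0.49, SE 0.15, adjusted p = 0.0302), a call lost without any 1 of 4 mice (WT control 1 or 3, WT IMQ 1 or 2), with adjusted p up to 0.105. Irf1, an interferon-induced transcription factor, was 26.7 CPM in WT IMQ and 33.4 CPM in WT control skin (adjusted p = 0.447). For genes called lower the count of 0 was also 0 at an unadjusted p under 0.05 and by DESeq2.

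In KO-labelled IMQ against WT IMQ, 0 of the 11 signalling genes passed; at an unadjusted p under 0.05 there were 1 higher and 3 lower, and DESeq2 called 1 higher and 1 lower on the 6 mice, and 1 higher on all 12. Without WT IMQ mouse 2, 1 was called higher. Between the controls, Irf9, a DNA-binding factor of type I interferon signalling, had 80.5 CPM in KO-labelled and 50 CPM in WT mice, without overlap (log2 0.69, SE 0.17), while Irf1 (61.8 and 33.4 CPM) overlapped. From KO-labelled control to KO-labelled IMQ skin Irf1 and Irf9 were lower without overlap, with means of 31.8 and 40.1 CPM after IMQ.

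Of 34 listed interferon gamma targets 33 could be tested under IMQ in WT skin, and 8 fell and 1 rose, beside 14.3% of all genes called lower and 14.2% higher, with a median log2 difference of -0.57. Those that fell included the MHC class II genes, which present peptides to CD4 T cells and are also expressed constitutively by dendritic cells. H2-Ab1 fell from 809 to 116 CPM (log2 -2.80, SE 0.43, adjusted p = 0.000744), H2-Eb1 from 657 to 98.7 CPM (-2.73, SE 0.44, adjusted p = 0.00105) and H2-Aa from 811 to 139 CPM (-2.55, SE 0.40, adjusted p = 0.000942). Gbp2b, a guanylate-binding GTPase, fell by 3.31 on the log2 scale (SE 0.81, adjusted p = 0.0105). It was the only Gbp gene called: Gbp2, Gbp3, Gbp4, Gbp5, Gbp6 and Gbp7 had adjusted p from 0.106 (Gbp3) to 0.984 (Gbp7). The GTPase genes Igtp, Irgm1, Irgm2 and Iigp1 were not called either (adjusted p from 0.158 for Irgm1 to 0.764 for Iigp1). The other falling targets were Cd74, Ciita, Tap1 and Tap2. The gene that rose was Nos2, inducible nitric oxide synthase, from 1.39 to 5.51 CPM (1.99, SE 0.53, adjusted p = 0.0156), named after its value was seen. The count of falling targets was 14 without WT IMQ mouse 2. The count of rising targets was 0 without WT control mouse 1 or WT IMQ mouse 2, and 2 without WT control mouse 2.

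The targets called between genotypes after IMQ belonged to MHC class II presentation. In KO-labelled IMQ against WT IMQ, 2 of 33 targets (6.06%) were called higher and 0 lower (0 also at an unadjusted p under 0.05 and by DESeq2), with a median of 0.43. Over all genes 2.19% were called higher and 2.6% lower, so counts this small stand near those shares. The 2 called targets were H2-Ab1 (358 against 116 CPM, log2 1.62, SE 0.41, adjusted p = 0.0487) and Ciita, the master regulator of class II transcription (18.6 against 8.52 CPM, 1.13, SE 0.25, adjusted p = 0.0349). Both calls were kept without WT IMQ mouse 2, when 7 targets were called, and lost without any other 1 of the 6 mice, when 0 were called, with adjusted p up to 0.206 and 0.17; with the replicate number as a block both were lost, and 0 targets were called. Iigp1 and Igtp, GTPases that respond strongly to interferon gamma, were at 33.3 against 38.9 CPM (adjusted p = 0.809) and 16.7 against 18.6 CPM (adjusted p = 0.873). Reads of the Gbp, Tgtp and H2 genes may be shared between near-identical paralogs, so their separate values are uncertain.

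Some cell-type markers moved with these comparisons. Over all genes in WT IMQ against WT control, 14.3% were called lower and 14.2% higher. In WT IMQ against WT control, 12 of 26 T and NK markers fell and 1 rose (median -1.52), while 9 of 10 keratinocyte markers rose, to a summed level of 30700 to 40800 CPM from 5270 to 8800. Among the T and NK markers with the largest changes, those whose fall passed in every leave-out were Cd3d, a chain of the T cell receptor complex (log2 -2.60, SE 0.55, adjusted p = 0.00461), the chemokine Xcl1 (-3.33, SE 0.66, adjusted p = 0.00329) and the receptor Klrk1 (-2.09, SE 0.43, adjusted p = 0.00389). Cd3e fell as well (-2.17, SE 0.59, adjusted p = 0.0179), but not without WT IMQ mouse 1 (adjusted p = 0.0808). The T cell receptor gene Trbc2 was the marker that rose (1.37, SE 0.17, adjusted p = 0.000135), and 2 rose without WT control mouse 2. Xcr1, a marker of cross-presenting dendritic cells, fell from 4.45 to 0.233 CPM (-4.16, SE 0.70, adjusted p = 0.00121), and Flt3, a receptor of dendritic cells and their precursors, by 1.51 on the log2 scale (SE 0.32, adjusted p = 0.00456). Of 13 myeloid markers these 2 fell and 3 rose, Adgre1, Itgam and Cd14, a count of 0 without WT control mouse 1 and of 1 without WT control mouse 3, WT IMQ mouse 2 or WT IMQ mouse 3. The myeloid shares, 15.4% lower and 23.1% higher, lay near those of all genes. The part of cell makeup in the fall of the targets was not tested.

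After IMQ, all 13 myeloid markers and all 10 fibroblast and endothelial markers were above WT IMQ in the KO-labelled mice by fitted difference, and 9 of 10 keratinocyte markers below. Summed myeloid markers were 4520 to 6540 CPM in KO-labelled IMQ mice and 3080 to 4640 in WT IMQ mice, and summed T and NK markers 127 to 162 and 88.5 to 137 CPM. Of these, 1 myeloid marker, Flt3 (1.30, SE 0.32, adjusted p = 0.0445), and 3 fibroblast genes, among them the collagen Col1a1 (1.23, SE 0.15, adjusted p = 0.0215), rose, and 3 keratinocyte genes and Trbc2 fell; among the 6 leave-outs those calls too were kept only without WT IMQ mouse 2, when 2 myeloid and 6 fibroblast or endothelial markers were higher, 4 keratinocyte markers lower and 6 T and NK markers higher. Over all genes 2.19% were called higher and 2.6% lower, and the T and NK share of 3.85% lower lay near that. Without WT IMQ mouse 2, 1288 of 19248 genes were called higher and 1438 lower. The part of these markers in the higher Ifngr1, Cxcr3 and class II values was not tested.

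The type I interferon genes, which encode antiviral proteins and regulators, fell in WT skin under IMQ: 14 of 20 were called lower and 0 higher (0 also at an unadjusted p under 0.05 and by DESeq2), with a median of -1.81. Over all genes 14.3% were called lower and 14.2% higher. Usp18, a negative regulator of the interferon receptor, fell by 2.39 (SE 0.45, adjusted p = 0.00269), Ifi44 by 2.42 (SE 0.56, adjusted p = 0.00806) and Rtp4 by 2.11 (SE 0.42, adjusted p = 0.0034), all on the log2 scale. Oas3, a sensor of double-stranded RNA, fell by 2.35 (SE 0.64, adjusted p = 0.0185), a call lost without WT control mouse 2, WT IMQ mouse 1 or WT IMQ mouse 3. The count was 7 without WT control mouse 2, 6 without WT IMQ mouse 1 and 7 without WT IMQ mouse 3. In KO-labelled IMQ against WT IMQ 0 of 20 passed in the fit on all mice, although 18 of 20 were higher without overlap, where 16% of all genes were. There 11 had an unadjusted p under 0.05, and 17 were called on the 6 mice alone by edgeR and by DESeq2, with 7 by DESeq2 on all 12; the median was 1.11. Calls of higher genes rose in those runs as a whole. On the 6 mice edgeR called 1077 of 16991 genes higher and DESeq2 1746 of 15666. On all 12 mice DESeq2 called 1278 of 18148 higher, and the main fit 405 of 18529. Without WT IMQ mouse 2, 2 of the type I interferon genes were called higher, beside 1288 of 19248 genes.

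**Figure D4:**
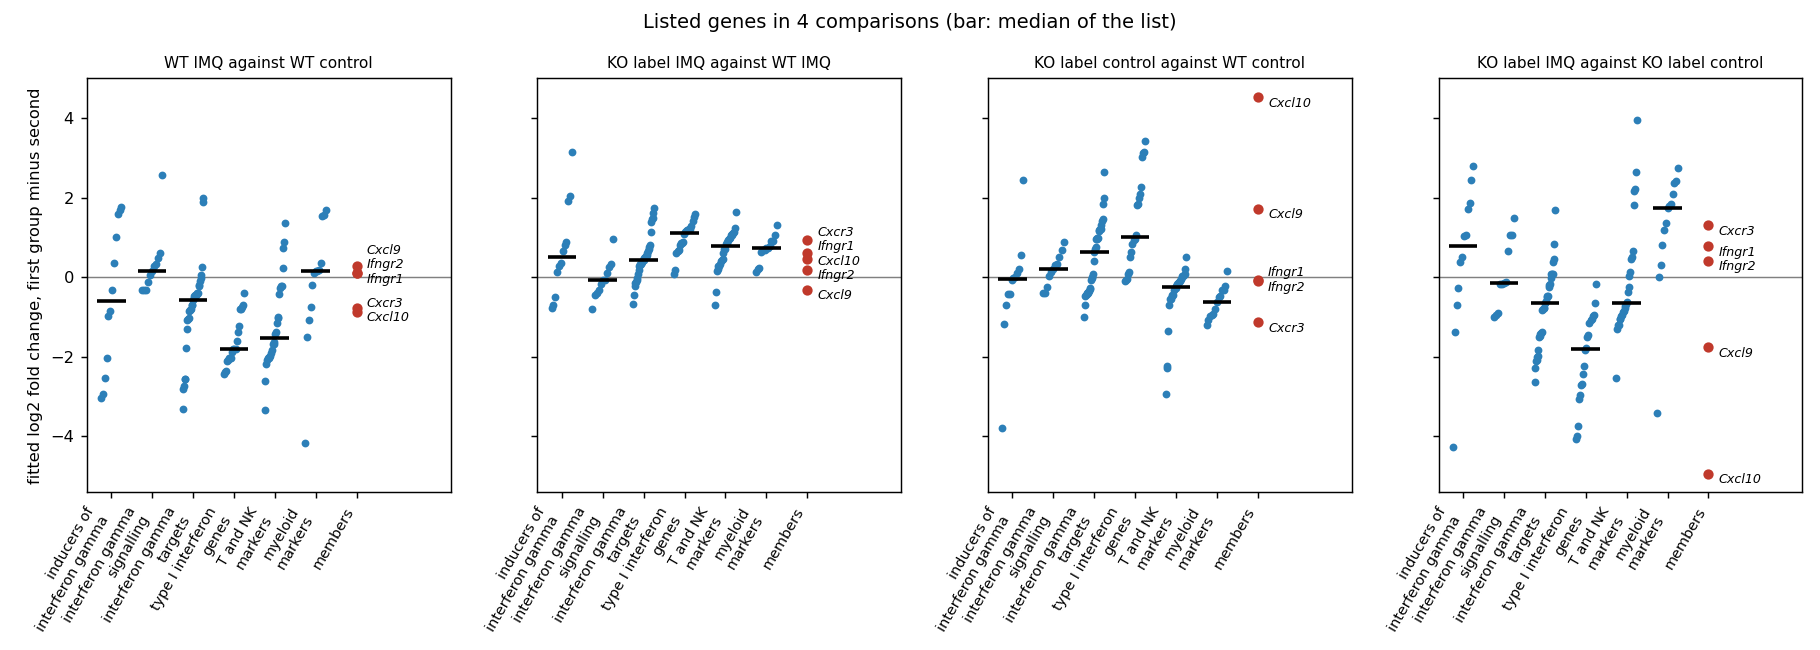
Fitted log2 fold changes of listed genes in 4 comparisons; each blue point is a gene, the black bar is the median of its list, and red points are the 5 measured genes of the set. In KO-labelled control against WT control Cxcl10 lies above every listed gene, the type I interferon genes have a median of 1.01 and the T and NK markers one of -0.25.

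In KO-labelled control against WT control the values beside Cxcl10 describe the same libraries that chose it and are given without tests. Of 20 type I interferon genes 17 had a higher fitted level and 9 did not overlap, where 4.19% of all genes were higher without overlap, and the median was 1.01 against 0.00 over all genes. Mx2, an interferon-induced GTPase with antiviral activity, was 34.9 against 3.21 CPM (log2 3.43, SE 0.50). Rsad2, which encodes viperin, was 126 against 14.2 CPM (3.14, SE 0.50), Ifit1, which binds viral RNA, 181 against 20.8 CPM (3.11, SE 0.47), and Mx1 74.7 against 9.18 CPM (3.02, SE 0.49). The same list held genes with nearly equal means: Oas1a (21 against 22.1 CPM), Oas2 (24.8 against 25.5), Irf7 (83.2 against 77.9) and Zbp1 (33.3 against 35.6), chosen here after their values were seen.

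Of 33 interferon gamma targets measured in the same comparison, 20 had a higher and 13 a lower fitted level in KO-labelled controls, 5 were higher and 0 lower without overlap, and the median was 0.64. Over all genes 4.19% were higher and 5.18% lower without overlap. Tgtp1, Gbp5 and Iigp1, all interferon-inducible GTPases, were higher by 2.65 (SE 0.72), 1.98 (SE 0.46) and 1.84 (SE 0.50) on the log2 scale, and Cd274, which encodes the checkpoint ligand PD-L1, by 1.22 (SE 0.29). The class II genes H2-Aa, H2-Ab1 and H2-Eb1, with Cd74 and Ciita, had lower means in groups that overlapped, for example H2-Ab1 at 494 against 809 CPM. No T, NK or myeloid marker was higher without overlap, a count that says little where only 4.19% of all genes were. Medians were -0.25 for 26 T and NK markers and -0.62 for 13 myeloid markers. Summed T and NK markers were 87.0 to 163 CPM in KO-labelled and 120 to 228 CPM in WT controls, and summed myeloid markers 1150 to 2280 and 1310 to 4360 CPM.

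From KO-labelled control to KO-labelled IMQ skin, 18 of 20 type I interferon genes and 14 of 33 interferon gamma targets were lower without overlap, where 22.8% of all genes were. Medians were -1.79 and -0.65 against -0.05 over all genes. Log2 differences were -4.06 (SE 0.49) for Ifit1, -3.98 (SE 0.53) for Mx2 and -2.62 (SE 0.73) for Tgtp1, beside -4.93 for Cxcl10. Of 13 myeloid markers 9 were higher without overlap, where 23.1% of all genes were, with a median of 1.74. This comparison and the one between controls share the 3 KO-labelled control mice, so their opposite signs are not independent.

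**Figure D5:**
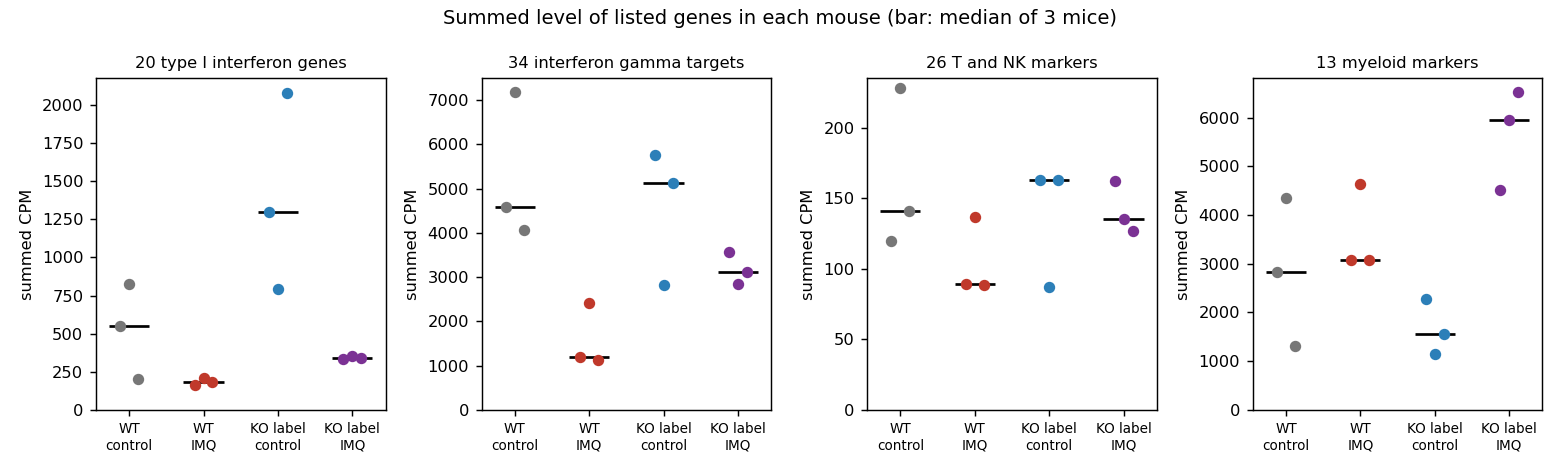
Summed level of 4 gene lists in every mouse, in CPM; points are mice and bars are group medians. Type I interferon genes sum to 791 to 2080 CPM in KO-labelled controls and to 203 to 827 in WT controls, while the summed myeloid markers are lowest in the KO-labelled controls by median.

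Over the 12 mice the genes whose levels most resembled each of the set were named by Pearson's r of log2 values among 15982 genes. For Cxcl10 they were Mx2 (r = 0.948), Ifit1 (0.946), Mx1 (0.938), Cmpk2 (0.934) and March5 (0.923), and Cxcl9 reached 0.801. For Cxcl9 they were Irf1 (0.926), Iigp1 (0.917), Tgtp1 (0.904), Igtp (0.904) and Gbp2 (0.889). Both rankings include the 3 KO-labelled controls whose Cxcl10 chose the set, so they in part restate which genes were high in those mice. For Cxcr3 they were Lum, a proteoglycan of fibroblasts, and Pea15a (both 0.939), Il16 (0.931), Tmem106a (0.925) and Klf2 (0.919), and for Ifngr1 Nfasc (0.974), Jaml (0.972), Cd47 (0.963), Fxyd5 (0.957) and Card6 (0.955). Cxcr3 and Ifngr1 correlated at 0.835, whereas Cxcl10 had -0.407 with Cxcr3. The 12 points share 4 groups and the libraries that stood apart.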

How the data were processed

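Skin RNA of 12 mice in 4 groups, as set by the sample titles, was compared. The authors deposited 1 table of raw counts per Ensembl gene; their notes name HISAT and mm8, paired reads of an Illumina platform are described, and the counting tool, its annotation and its strand setting are not given in the sources used here. Symbols and positions are from GENCODE M21 (GRCm38), which matched 52073 of 56923 identifiers (91.5%); unmatched ones held 0.567% of counts. Totals were 16448226 to 28592110 counts per mouse, and 3 counts, the most that a count of 0 allows, were 0.0985 to 0.202 CPM, for counting error only. Genes were filtered with filterByExpr (minimum 10, total 15), scaled by TMM and tested with the quasi-likelihood test of edgeR 4.0.16 (R 4.3.3) over 4 group means of all 12 mice. The p-values were adjusted by Benjamini-Hochberg over 18529 genes, with a threshold of 0.05; the common coefficient of variation was 0.253. Intervals are 95% from the fit. The study's DESeq2 (1.42.0), other scaling, filters, the block and leaving out each mouse were alternatives. Only WT IMQ against WT control and KO-labelled IMQ against WT IMQ were tested, because the KO-labelled controls had chosen Cxcl10. Members, lists and tests were chosen with earlier results of these data known. Named genes are the 6 members, at most 4 per list and comparison by size of change among those called (or not overlapping, where untested) with a mean of at least 1 CPM, the 5 most alike (pseudocount 0.5) and Lcn2. Dpp4, Cxcl11, Irf1, Iigp1, Igtp, Irgm1, Irgm2, the Gbp genes, Tap1, Tap2, Flt3, Trbc2 and the class II genes, where they fall outside that rule, were added after their values were seen. Scripts were tested on simulated data.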

Additional observations from a re-analysis of the deposited data

How the results depend on the processing

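The 0 calls among the 5 tested genes of the set in KO-labelled IMQ against WT IMQ became 2 with DESeq2 and 1 with edgeR on the 6 compared mice; in WT IMQ against WT control they stayed 0 in every alternative run. Interferon gamma targets called higher in WT IMQ (1) were 2 at an unadjusted p under 0.05 with a fold above 2, 2 with DESeq2 on 12 mice and 0 to 2 when a mouse was left out; those called lower (8) were 7 to 14. Targets called higher in KO-labelled IMQ against WT IMQ (2) were 5 by unadjusted p and fold, 1 without the filter, 6 with DESeq2 on 12 mice, 8 with DESeq2 and 7 with edgeR on the 6 mice, and 0 to 7 when a mouse was left out. Signs reversed when a mouse was left out for Cxcl9 in WT IMQ against WT control (-0.89 to 0.63) and in KO-labelled IMQ against WT IMQ (-0.68 to 0.85), and, in WT IMQ against WT control, for Cxcr3 (-1.09 to 0.18) and Ifngr1 (-0.09 to 0.45, with -0.01 and -0.08 without WT control mouse 1 and 3). In KO-labelled control against WT control, which carries no test, Ifngr1 ran from -0.23 to 0.31 (-0.06 with all mice), above 0 without WT control mouse 2 or KO-labelled control mouse 2. Across all genes, KO-labelled IMQ against WT IMQ gave 405 higher and 481 lower. DESeq2 gave 1278 and 1372 on 12 mice and 1746 and 1624 on the 6, and edgeR on the 6 gave 1077 and 817. Leaving out WT IMQ mouse 2 gave 1288 and 1438, while leaving out any other of the 6 IMQ mice gave at most 3 either way. Runs without a control mouse are not given for this comparison. In WT IMQ against WT control, 2633 and 2654 became 1775 and 1514 without WT IMQ mouse 1, and 1981 and 1688 without WT IMQ mouse 3. The cause was not tested.

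With the replicate number as a block, the calls in KO-labelled IMQ against WT IMQ fell to 77 and 59 and its 2 target calls to 0, and WT IMQ against WT control gave 2196 and 2208. Same-numbered mice are different animals and their deviations correlated at 0.0795, 0.199 and 0.0548 in the WT groups and at 0.0284, 0.0875 and 0.0489 in the IMQ groups, so the numbers were not taken as pairs; no call of a gene of the set changed. With 3 mice a group, log2 differences in Cxcl9 or Cxcr3 smaller than the intervals given, and any change in Ifng, could not be resolved.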
